A study of Homo sapiens with 6 samples.

Results

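The 9 genes described here encode the core of the elongation kinase P-TEFb (CDK9, CCNT1 and CCNT2), the partners that hold it on the 7SK small nuclear RNA (HEXIM1, HEXIM2, MEPCE and LARP7) and the BET proteins BRD2 and BRD3. They were chosen by gene symbol, with their fold changes between nitidine chloride and DMSO already known, and are 9 of the 50868 genes in the deposited table. Each symbol had 1 row, and all 9 genes passed a minimum mean of 10 counts over the 6 libraries, as did 15953 genes of the table. The group does not hold every member of the BET family, and 7SK RNA itself was not analysed here. Because this same contrast was in view when the genes were chosen, their fold changes are a description, and no p-value is given for them.

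P-TEFb is a kinase made of CDK9 and a cyclin T subunit that phosphorylates RNA polymerase II and the factors that hold it paused near the start of genes. Much of the kinase is kept inactive in a particle in which LARP7 and the methylphosphate capping enzyme MEPCE bind 7SK RNA and HEXIM1 or HEXIM2 blocks CDK9. BET proteins bind acetylated histones through their bromodomains. HEXIM1 is known as a gene whose transcript increases when P-TEFb is released from 7SK RNA, and it takes its name from its induction by hexamethylene bisacetamide.

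RNA came from HEK-293T, a transformed line of human embryonic kidney cells, labelled wild type in both groups. One group of 3 libraries was from cells given nitidine chloride, a benzophenanthridine alkaloid, at 10 µM for 12 h. The other group of 3 was from cells kept for the same 12 h with DMSO, the solvent. The study's title concerns mTORC1 signalling, ATF4, Sestrin2 and IGF2R, none of which is among the 9 genes.

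Library totals were 13273432 to 15620937 counts with nitidine chloride and 12688093 to 16357992 counts with DMSO. Expression is in CPM (counts scaled per library) with TMM factors, which set the libraries to a common scale through the genes that differ least. The labels do not say whether the libraries came from separate cultures, so errors and p-values measure the spread between these libraries, which may be technical. All of them are of bulk RNA, in which fewer cells and less RNA per cell cannot be told apart. The summed level of 5 transcripts known in HEK-293T cells (PAX2, LHX1, NEFM, NEFL and INA) was 328.0 to 345.5 CPM with nitidine chloride and 329.7 to 343.7 CPM with DMSO, with 4 of the 5 above 1 CPM and INA near 0. Within that sum NEFM was lower, at 114 to 123 CPM with nitidine chloride and 162 to 180.5 CPM with DMSO, and NEFL higher, at 191 to 198 CPM with nitidine chloride and 147 to 157 CPM with DMSO. LHX1 was also higher, at 15.3 to 17.98 CPM with nitidine chloride and 9.58 to 10.1 CPM with DMSO, and the groups did not overlap for any of these 3. Summed markers of hepatocytes, fibroblasts and endothelium were at or below 3.22 CPM in each library. The 3 endothelial markers summed to 0.42 to 0.69 CPM with nitidine chloride and 0 to 0.19 CPM with DMSO. The groups did not overlap for the endothelial sum, and its part in the results was not tested.

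The promoters of HEXIM1, MEPCE and BRD3 are shown because HEXIM1 and MEPCE had the highest fold changes of the 9 genes and BRD3 the one nearest to 0. They are RefSeq sequences of GRCh38.p14, read 5′ to 3′ on the strand of the gene, and end at the base before the RefSeq start, except for MEPCE, for which 30 bases are given. The RefSeq start is that of the deposited table for MEPCE but lies upstream of it for HEXIM1 and downstream of it for BRD3. The BRD3 window is thus inside the gene as the table and GENCODE give it. Capitals mark TATATAA in HEXIM1 (chr17:45148225-45148474, plus strand) and MEPCE (chr7:100428748-100428777, plus strand). In BRD3 (chr9:134068027-134068276, minus strand) they mark GGGCGG, the GC box, in either direction, and neighbouring boxes can overlap.
HEXIM1: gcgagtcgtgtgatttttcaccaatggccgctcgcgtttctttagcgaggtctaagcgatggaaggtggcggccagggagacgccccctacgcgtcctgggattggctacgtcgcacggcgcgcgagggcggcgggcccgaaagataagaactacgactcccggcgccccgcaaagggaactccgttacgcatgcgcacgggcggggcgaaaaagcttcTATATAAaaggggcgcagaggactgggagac
MEPCE: cacactcgctggTATATAAgtcggcgtggc
BRD3: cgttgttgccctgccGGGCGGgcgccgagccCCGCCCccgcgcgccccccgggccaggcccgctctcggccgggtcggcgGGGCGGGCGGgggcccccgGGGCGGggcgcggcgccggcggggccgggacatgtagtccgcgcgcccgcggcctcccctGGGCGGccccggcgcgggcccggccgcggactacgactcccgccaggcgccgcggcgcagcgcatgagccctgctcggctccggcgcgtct

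In HEXIM1 the T of TATATAA that comes first lay at position -31, and in MEPCE at -30, counted back from the RefSeq start. All 9 genes had at least 1 RefSeq start, 17 in all, and 250 bases before each were searched on both strands. TATATAA was in 2 of the 17 windows, those of HEXIM1 and of the most upstream MEPCE start, and in 2.42% of 35116 windows of all genes. The TATATAA letters were chosen after the windows had been read, so this is a description. GGGCGG was in 12 of the 17 windows, from 8 of the 9 genes, and in 42.6% of all windows. BRD3 held 6 such boxes and no TATATAA. Its window was 86.8% G and C with 48 CpG dinucleotides, that of HEXIM1 62.4% with 31, and the median over all windows was 58.0% with 11. CCAAT was in 6 of the 17 windows and in 32% of all. The E-box CACGTG was in 2 of the 17, from MEPCE and CCNT1, and in 6.34% of all. The cAMP response element TGACGTCA was in 1, from LARP7 at position -243, and in 1.65% of all, while the C/EBP-ATF element TGATGNAA was in 0 of the 17 and in 3.14% of all.

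Of the 9 genes, 6 were higher with nitidine chloride than with DMSO past the threshold. It was set at 0.05 for the quasi-likelihood p-value from edgeR, after Benjamini-Hochberg adjustment over all 15953 tested genes. These were HEXIM1, MEPCE, HEXIM2, CCNT1, CDK9 and BRD2. LARP7, CCNT2 and BRD3 were not past it. The count of lower genes was 0 in edgeR, also at an unadjusted p of 0.05, and 0 in DESeq2 and limma-voom. Among all tested genes 51.7% were past the threshold, 24.7% higher and 27.0% lower, that is 3936 and 4314 genes, against 5140 higher and 3730 lower under scaling by library size alone. The same 6 genes had all nitidine chloride libraries above all DMSO libraries, a separation found in 29.7% of tested genes. The median log2 fold change was 0.46 over the 9 genes and 0.01 over all tested genes. With scaling by library size alone the median of all tested genes was 0.12, so higher and lower are meant on the TMM scale.

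**Figure D1:**
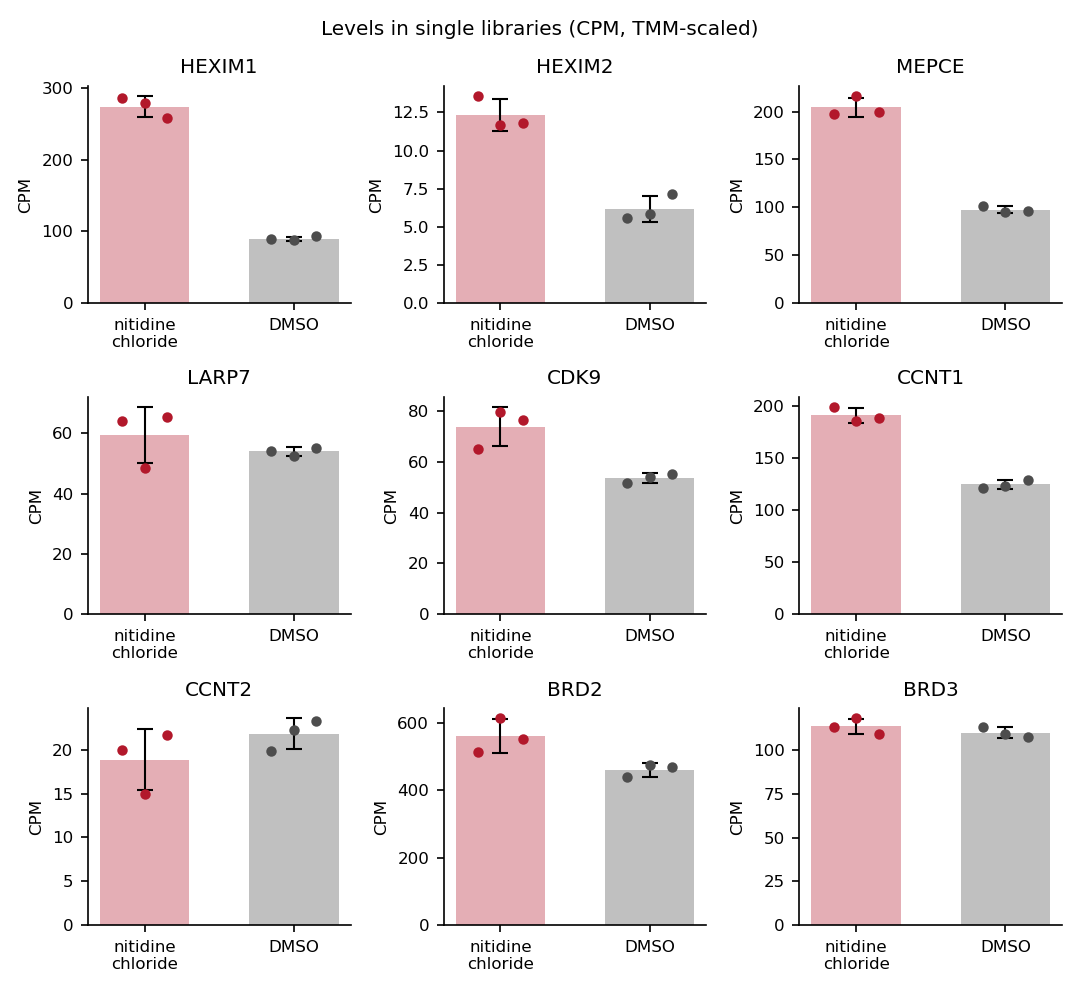
Level of each of the 9 genes in CPM (vertical axis, from 0, a separate scale for each gene), in nitidine chloride libraries on the left and DMSO libraries on the right of each panel. Points are libraries, bars are means and whiskers SD (n = 3 each). HEXIM1, MEPCE, HEXIM2, CCNT1, CDK9 and BRD2 have separated groups, while LARP7, CCNT2 and BRD3 overlap.

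HEXIM1 (ENSG00000186834), the inhibitor of CDK9 whose transcript follows P-TEFb release, had the highest fold change of the 9. It lies on chromosome 17 from 45148502 to 45152101 on the plus strand, a gene of 3.6 kb with a single exon. Its levels were 286, 278 and 258 CPM in the nitidine chloride libraries, against 89.3, 87.5 and 92.8 CPM in the DMSO libraries. The lowest treated library stood far above the highest DMSO library, and both groups were tight. The means were 273.8 ± 14.4 CPM with nitidine chloride and 89.9 ± 2.70 CPM with DMSO (SD, n = 3 each). This is a 3.05-fold difference, or a log2 fold change of 1.61 ± 0.06 (SE) with a 95% interval of 1.46 to 1.76. Only 138 of the 15953 tested genes had a higher log2 fold change.

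HEXIM2 (ENSG00000168517), the paralog that can take the place of HEXIM1 in the 7SK particle, starts 8598 bp downstream of the end of HEXIM1, on the same strand (chromosome 17, 45160700 to 45170040). It was much less abundant, with 194, 185 and 164 counts in the nitidine chloride libraries and 68, 82 and 113 counts in the DMSO libraries. The scaled levels were 13.6, 11.7 and 11.8 CPM, against 5.59, 5.83 and 7.17 CPM with DMSO. The groups did not overlap, though the DMSO libraries were more spread relative to their mean than those of HEXIM1. This was a 1.98-fold difference, a log2 fold change of 0.99 ± 0.14 (SE) with a 95% interval of 0.67 to 1.31 on the log2 scale. This and all later ratios between genes are taken within libraries, from CPM per kb of exon with overlapping exons merged. The ratio of HEXIM1 to HEXIM2 was 11.9, 13.5 and 12.4 with nitidine chloride, against 9.05, 8.49 and 7.32 with DMSO. The lowest treated ratio was above the highest DMSO ratio.

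MEPCE (ENSG00000146834), which adds a methyl cap to 7SK RNA, lies on chromosome 7 from 100428790 to 100434126 on the plus strand. Its levels were 198, 216 and 199.8 CPM with nitidine chloride, against 102, 94.8 and 95.9 CPM with DMSO. Each treated library was clearly above each DMSO library. The means were 205 ± 10.1 CPM with nitidine chloride and 97.5 ± 3.83 CPM with DMSO (SD, n = 3 each), a 2.10-fold difference. The log2 fold change was 1.07 ± 0.06 (SE), with a 95% interval of 0.92 to 1.22. The gene ZCWPW1 overlaps the start of MEPCE by 203 bp on the opposite strand, and its counts came to 1.23% of those of MEPCE.

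LARP7 (ENSG00000174720), the La-related protein that binds the end of 7SK RNA and keeps it stable, lies on chromosome 4 from 112636964 to 112657592 on the plus strand. Its levels were 64.0, 48.6 and 65.3 CPM with nitidine chloride, against 54.1, 52.6 and 55.2 CPM with DMSO. The treated libraries lay on both sides of the DMSO libraries, replicate 2 below and the other two above. The log2 fold change was 0.14 ± 0.12 (SE), with a 95% interval of -0.14 to 0.41. Without nitidine chloride replicate 2 it was 0.26 and past the threshold, so that library decides the call. ZGRF1 overlaps LARP7 by 32 bp on the opposite strand and held 69.1% as many counts. The strand setting of the counting is not given in the sources used here, so reads from this overlap cannot be told apart.

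The 4 genes of the 7SK particle thus did not move by the same amount. The ratio of HEXIM1 to LARP7 per kb of exon was 5.06, 6.50 and 4.48 with nitidine chloride, against 1.87, 1.89 and 1.91 with DMSO. That of MEPCE to LARP7 was 3.69, 5.31 and 3.65 with nitidine chloride, against 2.25, 2.15 and 2.07 with DMSO. Neither ratio overlapped between the groups, and for both the highest treated value was that of replicate 2, where LARP7 was low.

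CDK9 (ENSG00000136807), the catalytic subunit of P-TEFb, lies on chromosome 9 from 127785679 to 127790787 on the plus strand. Its levels were 65.4, 79.97 and 76.6 CPM with nitidine chloride, against 51.8, 53.98 and 55.4 CPM with DMSO. The lowest treated library was above the highest DMSO library, by less than the range of the treated group. CDK9 thus differed 1.38-fold, a log2 fold change of 0.46 ± 0.09 (SE) with a 95% interval of 0.25 to 0.67 on the log2 scale. The ratio of HEXIM1, the inhibitor, to CDK9, its target, was taken per kb of exon. It was 3.64, 2.90 and 2.81 with nitidine chloride, against 1.44, 1.35 and 1.40 with DMSO. The mean ratio was 3.12 ± 0.46 with nitidine chloride and 1.40 ± 0.04 with DMSO (SD, n = 3 each), and the groups did not overlap.

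CCNT1 (ENSG00000129315), which encodes cyclin T1, the main cyclin partner of CDK9, lies on chromosome 12 from 48688458 to 48716998 on the minus strand. Its levels were 199, 186 and 188 CPM with nitidine chloride, against 122, 123 and 129 CPM with DMSO. The groups were wide apart and each was tight. CCNT1 differed 1.53-fold, a log2 fold change of 0.62 ± 0.06 (SE) with a 95% interval of 0.48 to 0.75 on the log2 scale. The ratio of CCNT1 to CDK9 per kb of exon was 1.24, 0.94 and 0.998 with nitidine chloride, against 0.95, 0.93 and 0.95 with DMSO. Those ratios overlapped between the groups.

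CCNT2 (ENSG00000082258), which encodes the other cyclin T, lies on chromosome 2 from 134918235 to 134959342 on the plus strand and is the longest of the 9 genes. Its levels were 19.99, 14.97 and 21.7 CPM with nitidine chloride, against 19.9, 22.3 and 23.4 CPM with DMSO. The groups overlapped, with the lowest value in nitidine chloride replicate 2. The log2 fold change was -0.21 ± 0.15 (SE), with a 95% interval of -0.56 to 0.14. The ratio of CCNT1 to CCNT2 per kb of exon was 12.2, 15.3 and 10.7 with nitidine chloride, against 7.51, 6.80 and 6.79 with DMSO. This ratio did not overlap between groups, although CCNT2 by itself did. CCNT2-AS1 overlaps CCNT2 by 476 bp on the opposite strand, with 6.81% as many counts.

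BRD2 (ENSG00000204256), a BET protein with paired bromodomains, was the most abundant of the 9 genes in CPM and lies on chromosome 6 from 32968660 to 32981505 on the plus strand. Its levels were 514, 614 and 553 CPM with nitidine chloride, against 438, 477 and 469 CPM with DMSO. The groups were separated, by less than the range within either. BRD2 differed 1.22-fold, a log2 fold change of 0.28 ± 0.08 (SE) with a 95% interval of 0.10 to 0.46 on the log2 scale. It was no longer past the threshold at an adjusted p of 0.01, nor without DMSO replicate 1, where the log2 fold change was 0.24.

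BRD3 (ENSG00000169925), the related BET protein, lies on chromosome 9 from 134030305 to 134068535 on the minus strand. Its levels were 113, 118 and 109.5 CPM with nitidine chloride, against 113.5, 109 and 107 CPM with DMSO. The groups overlapped. The log2 fold change was 0.05 ± 0.06 (SE), with a 95% interval of -0.09 to 0.19. With scaling by library size alone it was 0.15 and past the threshold, where the median of all tested genes was 0.12. BRD3OS overlaps BRD3 by 4362 bp on the opposite strand and held 19.3% as many counts, 272, 444 and 335 with nitidine chloride, against 209, 227 and 367 with DMSO. The ratio of BRD2 to BRD3 per kb of exon was 4.26, 4.87 and 4.74 with nitidine chloride, against 3.62, 4.09 and 4.09 with DMSO. Those ratios did not overlap.

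Levels can be compared between genes only per length. Here CPM was divided by the length of a gene's exons in kb, overlapping exons merged, from GENCODE release 29. With nitidine chloride, BRD2 at 76.4 ± 6.87 and HEXIM1 at 76.1 ± 3.99 CPM per kb of exon led, and their libraries overlapped. MEPCE followed at 59.8 ± 2.94, then CCNT1 at 25.9 ± 0.94 and CDK9 at 24.7 ± 2.55, which overlapped each other. BRD3 at 16.5 ± 0.63 and LARP7 at 14.5 ± 2.28 also overlapped, and HEXIM2 at 6.06 ± 0.52 and CCNT2 at 2.08 ± 0.39 came last (all SD, n = 3). The neighbours in this order not said to overlap were separated in all libraries.

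With DMSO, BRD2 stood first alone at 62.9 ± 2.75 CPM per kb of exon. MEPCE at 28.5 ± 1.12 and HEXIM1 at 24.96 ± 0.75 were next and did not overlap. CDK9 at 17.9 ± 0.61, CCNT1 at 16.9 ± 0.53 and BRD3 at 16 ± 0.46 followed, each overlapping its neighbour in this order. LARP7 at 13.2 ± 0.33, HEXIM2 at 3.04 ± 0.42 and CCNT2 at 2.40 ± 0.20 came after them (all SD, n = 3), each apart from its neighbours. HEXIM1 was thus below MEPCE with DMSO and above it with nitidine chloride, in each case without overlap. HEXIM1 overlapped BRD2 with nitidine chloride but not with DMSO.

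**Figure D2:**
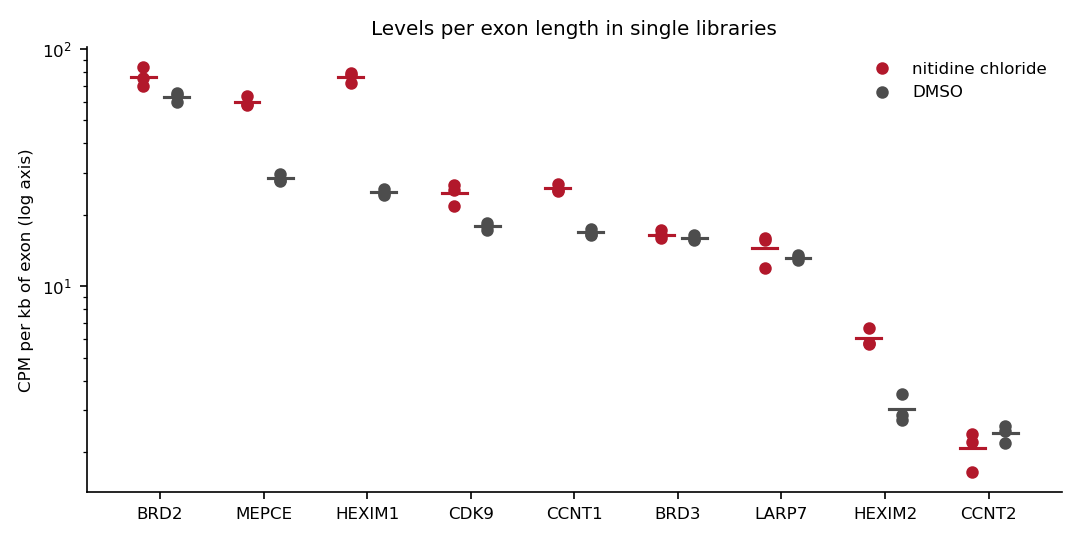
Levels in CPM per kb of exon (vertical log axis) for the 9 genes, ordered by their DMSO mean. Nitidine chloride libraries are on the left and DMSO libraries on the right of each gene, points are libraries and lines their means. HEXIM1 is level with BRD2 at about 76.1 CPM per kb with nitidine chloride and lies near MEPCE with DMSO.

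The order depends on the length used. The authors' FPKM rests on a length that counts every distinct annotated exon separately, also where exons overlap. It matched that sum within 1% for 87.2% of 15445 genes, and had a median of 1.48 times the merged exon length. Among the 9 genes it ran from 1.0 times for HEXIM1, which has 1 exon, to 2.60 times for HEXIM2. In the authors' FPKM, HEXIM1 therefore stood above BRD2 with nitidine chloride, with means of 78.8 and 37.9 FPKM. With DMSO the mean was 24.0 FPKM for HEXIM1 and 29.03 FPKM for BRD2. HEXIM1 was above MEPCE in both groups in FPKM, with MEPCE at 34.1 FPKM with nitidine chloride and 15.1 FPKM with DMSO, so their change of order rests on the merged exon length. Fold changes between groups do not depend on this length.

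Fold changes in this comparison ran with genomic span, the distance from a gene's start to its end with introns. The median log2 fold change was 0.09 for tested genes below 5 kb, 0.31 for 5 to 10 kb, 0.30 for 10 to 20 kb and 0.13 for 20 to 50 kb. It was -0.21 for 50 to 100 kb, -0.84 for 100 to 200 kb and -2.00 for 200 kb or more. The 9 genes all span under 50 kb, from 3.6 kb for HEXIM1 to 41.1 kb for CCNT2, so none lies in the classes whose medians were below 0. The part of span in the values of the 9 genes was not tested.

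Within its class of span below 5 kb, HEXIM1 had a higher fold change than 99.1% of 2718 tested genes, with 24 above it. MEPCE and HEXIM2 were higher than 93.9% and 92.3% of the 1644 genes of 5 to 10 kb, and CDK9, in the same class, than 63.5%. CCNT1 was higher than 86.2% of the 3875 genes of 20 to 50 kb. In that class LARP7, at 50.1%, was near the middle, BRD3 was higher than 40.8% and CCNT2 than 18.7%. BRD2 was higher than 48.0% of the 2396 genes of 10 to 20 kb, and its log2 fold change lay 0.02 below their median. CDK9 and BRD2, past the threshold, thus had fold changes within the interquartile range of genes of their span.

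**Figure D3:**
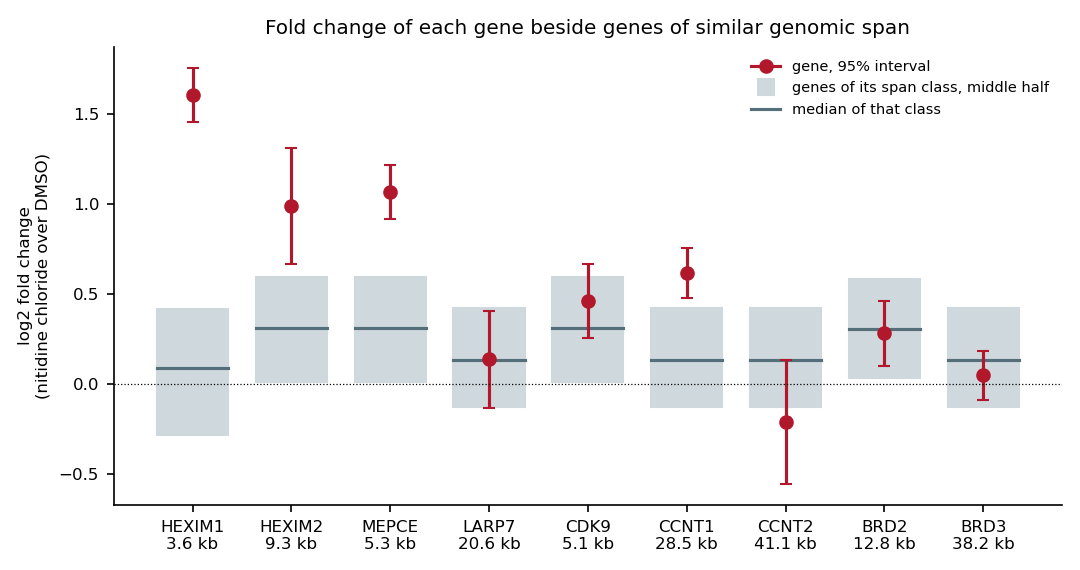
Log2 fold change, nitidine chloride over DMSO (vertical axis), of each of the 9 genes with its 95% interval, beside the tested genes of the same class of genomic span (box from the lower to the upper quartile, line at the median). HEXIM1, HEXIM2, MEPCE and CCNT1 lie above the boxes, CCNT2 below its box and the other genes within theirs.

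**Figure D4:**
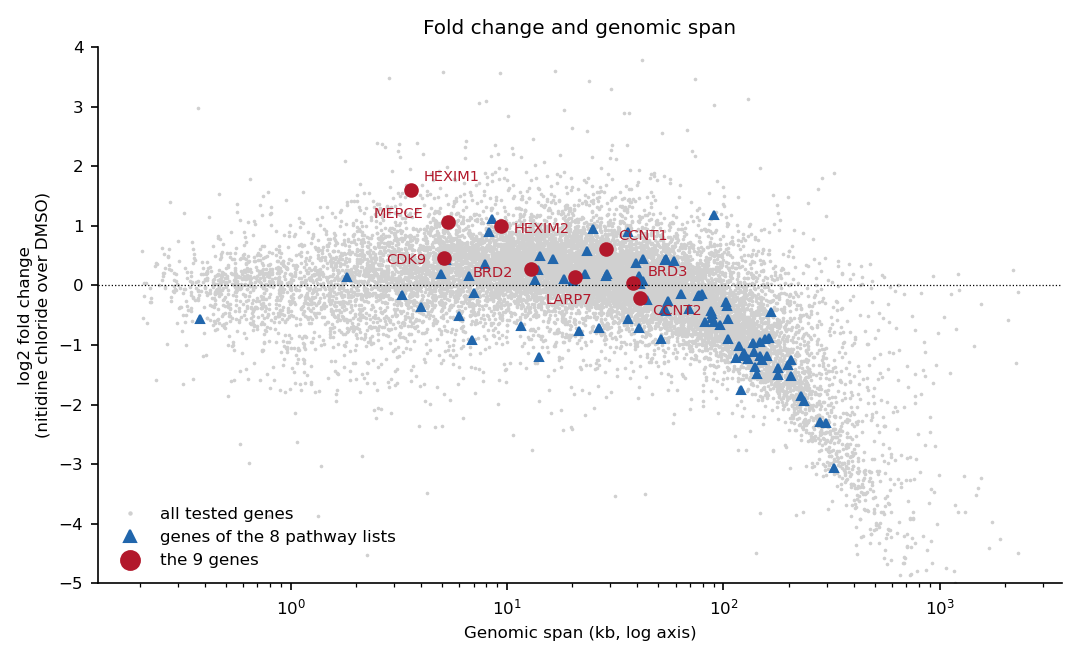
Log2 fold change, nitidine chloride over DMSO (vertical axis), against genomic span in kb (horizontal log axis). Grey points are all tested genes, blue triangles the genes of 8 pathway lists and red circles the 9 genes, and 19 genes beyond -5 or 4 are not drawn. The red circles lie to the left of the spans at which most genes have fold changes below 0.

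Genes were compared with HEXIM1 by the Euclidean distance of log2 CPM over the 6 libraries, each gene taken relative to its DMSO mean. This covered 10668 genes with a mean of at least 10 CPM and counts in every library. Names of the form used for readthrough genes, which join neighbours, were left out. The nearest were ADM2, a peptide hormone of the calcitonin family (distance 0.09), ZCCHC12, a zinc knuckle protein (0.22), and SESN2, which encodes Sestrin2 (0.23). Next came CTH, the cysteine-making cystathionine gamma-lyase (0.24), and IGFBP4, a binding protein of insulin-like growth factors (0.25). ADM2 had 22.8, 22.9 and 20.1 CPM with nitidine chloride, against 7.15, 6.76 and 7.24 CPM with DMSO. Its lowest treated value was in replicate 3, as for HEXIM1, ZCCHC12, CTH and IGFBP4 but not SESN2. The distance covers these same libraries, so choosing by it favours such likeness. Of the other genes in the group, MEPCE was the nearest, at 0.95, and CCNT1 next, at 1.72. HEXIM2 had a mean below 10 CPM and was not compared.

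The 8 lists of genes around P-TEFb held 89 genes, of which 87 were tested. Of these 17 were higher, 49 lower and 21 not past the threshold, with a median log2 fold change of -0.45. The lists differ from the 9 genes in span. Of the 37 list genes under 50 kb, 13 were higher and 9 lower with a median of 0.13. Of all 10633 tested genes of that span, 3612 were higher and 1066 lower with a median of 0.19. Of the 50 list genes of 50 kb or more, 4 were higher and 40 lower with a median of -0.90. Of all 5320 tested genes of that span, 324 were higher and 3248 lower with a median of -0.57. Their adjusted p-values come from the same edgeR test.

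**Figure D5:**
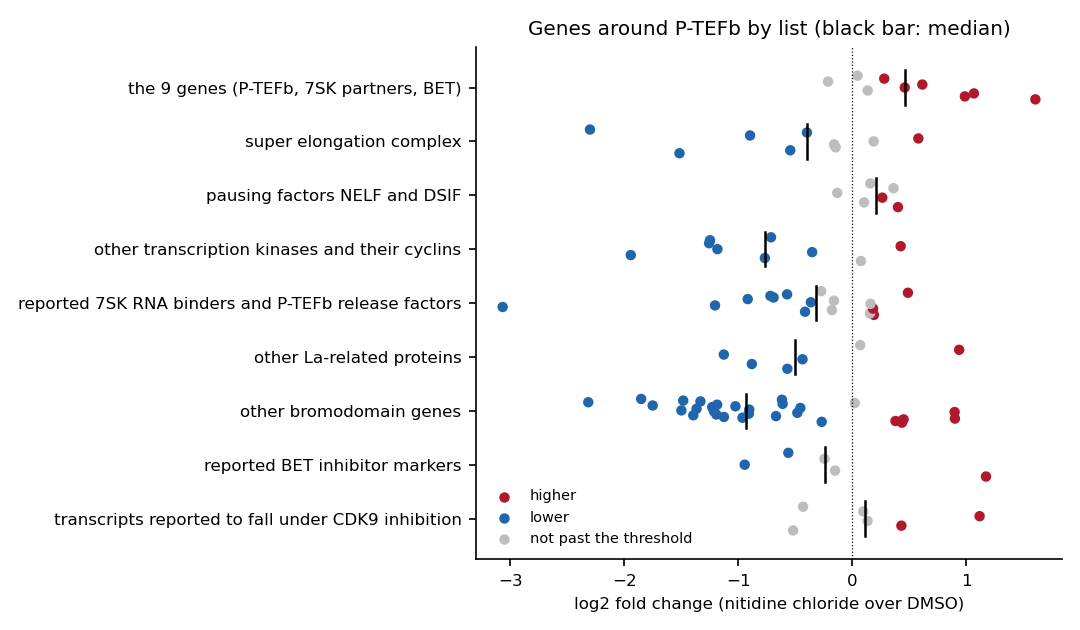
Log2 fold change, nitidine chloride over DMSO (horizontal axis), of the 9 genes and of the tested genes of the 8 lists. Points are genes, red if higher and blue if lower past the threshold and grey if not past it, and black bars are medians. The 9 genes have a median of 0.46 and the 30 tested genes of the other bromodomain list one of -0.93. The 9 genes all span under 50 kb, and that list has a median span of 119.3 kb. All tested genes of 100 to 200 kb have a median of -0.84.

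The super elongation complex, which carries P-TEFb to RNA polymerase II, had 1 gene higher and 5 lower of 9. Median span in this list was 76.97 kb, and of tested genes of 50 to 100 kb 10.45% were higher and 39.8% lower. EAF1 was higher (0.58 ± 0.06 SE, adjusted p = 1.71e-04 in edgeR's test), and MLLT3 (-2.30 ± 0.13, 5.83e-06) and AFF1 (-1.51 ± 0.18, 2.99e-04), both long genes, were the lowest. Of the 6 genes of the pausing factors NELF and DSIF, which CDK9 phosphorylates, NELFA (0.40 ± 0.08, 3.40e-03) and NELFCD (0.26 ± 0.07, 0.017) were higher, with 5 higher under library size scaling. The count was 1 at an adjusted p of 0.01 and without DMSO replicate 2 or DMSO replicate 3, where NELFCD was at 0.25 and 0.26 and not past the threshold. None of the 6 was lower in edgeR, DESeq2 or limma-voom, and 0 were at an unadjusted p of 0.05, but 1 was without nitidine chloride replicate 2. The 6 had a median span of 16.15 kb, and of tested genes of 10 to 20 kb 44.2% were higher and 6.30% lower. Other transcription kinases and their cyclins had 1 higher, CCNK, the partner of CDK12 and CDK13 (0.43 ± 0.10, 0.0107), and 7 lower of 9. The lowest were MNAT1 of the CDK7 complex (-1.94 ± 0.10, 3.81e-06) and the Mediator kinase CDK8 (-1.25 ± 0.08, 1.40e-05). These 9 genes had a median span of 103.4 kb, and of tested genes of 100 to 200 kb 2.647% were higher and 75.03% lower.

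Genes reported to bind 7SK RNA or release P-TEFb had 3 higher and 8 lower of 16. The number higher was 5 under library size scaling. It was 1 in DESeq2, with the replicate block and at an adjusted p of 0.01. It was also 1 without any 1 of the DMSO replicates and without nitidine chloride replicate 1. The 16 had a median span of 25.75 kb, and of tested genes of 20 to 50 kb 30.81% were higher and 12.15% lower. RBM7, an adaptor of the nuclear exosome, was higher (0.49 ± 0.09, adjusted p = 2.24e-03 in edgeR's test), as was the helicase DDX21 (0.19 ± 0.06, 0.0386), though DDX21 stayed past the threshold in 6 of 14 alternatives. The phosphatase subunit PPP3CA, of 324.9 kb (-3.07 ± 0.08, 4.32e-07), and the demethylase JMJD6 (-1.20 ± 0.10, 4.83e-05) were the lowest. The hnRNP proteins HNRNPA1, HNRNPA2B1, HNRNPR and SYNCRIP, which bind 7SK RNA that is free of P-TEFb, were all lower, at -0.92, -0.69, -0.72 and -0.57, and were named after their values were seen. HNRNPA1 has many processed pseudogenes, so its level is uncertain. Of the other La-related proteins, relatives of LARP7, 1 was higher (LARP6, 0.94 ± 0.10, 1.48e-04) and 4 lower of 6. Among the lower were LARP4B (-1.13 ± 0.11, 1.19e-04) and LARP1B (-0.88 ± 0.07, 2.87e-05). Median span of the 6 was 96.16 kb, and of tested genes of 50 to 100 kb 10.45% were higher and 39.8% lower.

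Other genes with a bromodomain, the fold that BRD2 and BRD3 share, had 6 higher and 23 lower of 30 tested, and SP100 and SP110 were below the count minimum. Span in this list had a median of 119.3 kb, and of tested genes of 100 to 200 kb 2.647% were higher and 75.03% lower. The 6 higher genes span 8.25 to 54.2 kb and the 23 lower genes 55.5 to 297.7 kb. BRPF3 (0.90 ± 0.09, adjusted p = 1.43e-04 in edgeR's test) and the acetyltransferase KAT2A (0.90 ± 0.07, 2.91e-05) were the highest. BAZ2B (-2.31 ± 0.16, 1.58e-05) and the methyltransferase ASH1L (-1.85 ± 0.07, 1.11e-06) were the lowest.

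Transcripts reported as markers of BET inhibitors include, besides HEXIM1, SERPINI1 (neuroserpin). It had 11.1 ± 0.27 CPM with nitidine chloride and 4.90 ± 0.14 CPM with DMSO (SD, n = 3 each), a log2 fold change of 1.17 ± 0.11 (SE; adjusted p = 7.63e-05 in edgeR's test) in a gene of 90.3 kb. Of the others, ZMYND8 (-0.94 ± 0.07, 2.54e-05) and the histone gene H2BC12 (-0.56 ± 0.13, 7.51e-03) were lower. ZCCHC24 (-0.15 ± 0.09, 0.194) and the histone gene H2BC21 (-0.24 ± 0.35, 0.591) were not past the threshold. For ZCCHC24 this held in 13 of 14 alternatives. Histone genes have near-identical copies, and many histone transcripts lack a poly(A) tail, so both levels are uncertain.

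Of 6 short-lived transcripts reported to fall when CDK9 is inhibited, 0 were lower and 2 higher past the threshold, with a median log2 fold change of 0.12. The count of lower genes was also 0 at an unadjusted p of 0.05 in edgeR, and 0 in DESeq2 and limma-voom. The 6 had a median span of 7.26 kb, and of tested genes of 5 to 10 kb 43.98% were higher and 6.69% lower. Of all tested genes 24.7% were higher and 27.0% lower. MCL1, an inhibitor of apoptosis, was higher (0.43 ± 0.06, adjusted p = 8.11e-04 in edgeR's test), as was FOSL1, a subunit of AP-1 (1.12 ± 0.28, 0.0120), at 3.32 ± 0.94 CPM with nitidine chloride and 1.54 ± 0.38 CPM with DMSO (SD, n = 3 each). JUNB (0.13 ± 0.11, 0.346), CCND1 (0.10 ± 0.06, 0.177) and XIAP (-0.43 ± 0.66, 0.614) were not past it. With library size scaling and with limma on log2(FPKM + 0.1), CCND1 was past it, at 0.20, and 3 of the 6 were higher. XIAP varied widely within both groups. MYC had 141, 90 and 79 counts with nitidine chloride, against 131, 143 and 149 counts with DMSO. The groups overlapped through treated replicate 1, and the log2 fold change was -0.52 ± 0.22 (adjusted p = 0.0881). Without nitidine chloride replicate 1 it was -0.83 (adjusted p = 3.03e-03). With a replicate block it was -0.56 (adjusted p = 0.0495, both in edgeR's test), so that call depends on 1 library and on the model. Another counted gene overlaps AFF1, EAF1, MNAT1, CCNK, HNRNPA2B1, RBM7, LARP6, KAT2A, BAZ2B, PPP3CA, H2BC21, JUNB and CCND1. In each case it held more than 5% as many counts, so their values share this limit. By gene, the largest shares were 280.5% for H2BC21 (H2BC20P), 154.5% for CCNK (CCDC85C) and 86.3% for JUNB (HOOK2).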

How the data were processed

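Per the file headers, the authors deposited counts and FPKM for each gene and library. Counts were whole and summed differently per library, and FPKM had been scaled by the authors to a gene length and to counted reads. The submitters' processing notes list HISAT2 2.0.4 and StringTie 1.3.0 without saying what each did. Which tool counted the reads, on which strand, build and annotation, is not given in the sources used here. Positions of the 9 genes, and of 47523 of 50111 gene identifiers, were identical to GENCODE release 29 on GRCh38.

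Genes averaging 10 or more counts over 6 libraries were tested by quasi-likelihood in edgeR 4.0.16 (R 4.3.3) with TMM scaling, nitidine chloride against DMSO, no covariate and Benjamini-Hochberg adjustment. They held 99.8% of all counts. The SE is the size of the log2 fold change divided by the square root of the F statistic. The test was checked on simulated data. Libraries of a group differed by more than sampling noise (chi-square per degree of freedom 12.3 to 15.8 with nitidine chloride and 8.53 to 8.85 with DMSO).

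The 9 genes, the lists and the tests were chosen with earlier results of these data known. Named were the 9 genes, up to 2 highest and 2 lowest genes past the threshold per list, all genes of the last 2 lists, the 5 genes nearest to HEXIM1 and genes overlapping one of the 9. HIST2H2BE and HIST1H2BK were matched as H2BC21 and H2BC12 through RefSeq synonyms. Alternatives tried were DESeq2 1.42.0, limma-voom, limma 3.58.1 on log2(FPKM + 0.1), library size scaling, no count filter, a minimum mean of 50, a threshold of 0.01, leaving out each library and a replicate block. Figures were drawn with matplotlib 3.10.9.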

Additional observations from a re-analysis of the deposited data

How the results depend on the processing

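Under 14 alternatives, HEXIM1 stayed between 1.58 and 1.71, MEPCE between 1.03 and 1.17, HEXIM2 between 0.92 and 1.11, CCNT1 between 0.59 and 0.72 and CDK9 between 0.40 and 0.57 on the log2 scale, all past the threshold. CCNT2 stayed between -0.32 and -0.07 and was past it in 0 of them. With each library left out in turn, BRD2 ran from 0.21 to 0.34 and LARP7 from 0.063 to 0.26, and each changed its call once, for BRD2 without DMSO replicate 1 and for LARP7 without nitidine chloride replicate 2. BRD2 (0.28) also lost its call at an adjusted p of 0.01. BRD3 gained one, at 0.15, with library size scaling and with limma on log2(FPKM + 0.1). At an adjusted p of 0.01, higher genes fell to 2616 of all tested and 11 of the lists, against 3936 and 17. Library size scaling called 5140 genes higher and 3730 lower, against 3936 and 4314. With libraries left out, H2BC21 ran from -0.45 to 0.029, above 0 without nitidine chloride replicate 2, at 8 to 18 counts a library. The cause was not tested. Replicate numbers did not pair the libraries (correlations of same-numbered deviations of 0.001, -0.06 and 0.04). A replicate block gave 7555 changed genes, against 8250, and kept the calls of the 9 genes, but MYC was then past the threshold (-0.56) and DDX21 not (0.19). Low counts limit HEXIM2, FOSL1 and H2BC21.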
